A study of Sus scrofa with 9 samples.

Results

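Ligands of the transforming growth factor beta (TGF-beta) family were examined in boar testis: BMP5, BMP2, BMP4, BMP6, BMP7, BMP15, GDF9, TGFB1, TGFB2 and TGFB3. BMP5 was chosen by its log2 signal in the t(1;14) boar against the controls, where it fell, and the other ligands because they belong to the same family. A probe was counted as a member when the array's annotation gives one of these symbols as its gene name, or gives the symbol in parentheses in its description. The rule found 15 probes for 10 genes among 60889 non-control probes. RNA from testis biopsies was hybridized to 9 single-colour porcine arrays, 3 per group. The control group came from fertile boars with the normal karyotype (2n=38,XY); the study speaks both of 3 such boars and of a pool, and which boar or pool each array holds was not stated in the sources used here. The oligospermic group came from 1 boar with few spermatozoa and the same normal karyotype. The t(1;14) group came from 1 Landrace × Duroc boar that carries a balanced reciprocal translocation between chromosomes 1 and 14, labelled trcp(1;14), and that had severely oligo-astheno-teratospermic semen, meaning few, poorly motile and malformed spermatozoa. The 3 arrays of an infertile boar are separate samples of 1 animal, and the control arrays may hold pooled RNA, so the tests below measure the spread between arrays and not between animals.

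TGF-beta family ligands are secreted dimers that bind a pair of type I and type II serine/threonine kinase receptors. The receptors phosphorylate SMAD proteins: SMAD2 and SMAD3 after TGF-beta and activin, SMAD1, SMAD5 and SMAD9 after bone morphogenetic proteins (BMPs). These join SMAD4, enter the nucleus and act on target genes such as the ID genes. In the testis, BMPs and activins act on germ cells and Sertoli cells, and GDF9 and BMP15 are best known from the oocyte. By the RefSeq table of the Sscrofa11.1 assembly, BMP5, BMP6 and TGFB3 lie on chromosome 7, BMP2 and BMP7 on 17, GDF9 on 2, TGFB1 on 6, TGFB2 on 10 and BMP15 on X. BMP4 was the only ligand of the 10 on a rearranged chromosome, chromosome 1.

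Several results turned on single probes of 60 bases, so those probes are shown here 5′ to 3′ as the array files give them. The first 4 gave the BMP5, BMP7 and BMP4 values below.
BMP5: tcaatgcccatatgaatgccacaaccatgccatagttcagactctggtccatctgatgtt
BMP7: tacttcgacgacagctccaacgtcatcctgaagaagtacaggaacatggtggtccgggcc
BMP4 first: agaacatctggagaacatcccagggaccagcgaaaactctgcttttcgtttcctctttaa
BMP4 second: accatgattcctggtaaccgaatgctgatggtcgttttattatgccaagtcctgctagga
The BMP2 and BMP6 probes are shown because the same 60 bases were spotted at a second place on the array under another identifier, and the 2 spots read differently.
BMP2: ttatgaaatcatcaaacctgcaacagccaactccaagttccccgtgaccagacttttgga
BMP6: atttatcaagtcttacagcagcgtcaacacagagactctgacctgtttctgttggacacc
The 2 BMP15 probes overlap by 50 bases and differ at 2 of them, which are in capitals. Counted from the 5′ end of the second probe, the differences from second to first are T47C and G55A.
BMP15 first: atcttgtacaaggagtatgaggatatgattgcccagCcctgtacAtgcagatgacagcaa
BMP15 second: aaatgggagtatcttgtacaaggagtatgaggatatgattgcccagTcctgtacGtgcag
The GDF9 probe that carries the gene's name and a probe without a name share 57 bases, and the 3 bases that each holds alone are in capitals.
GDF9 named: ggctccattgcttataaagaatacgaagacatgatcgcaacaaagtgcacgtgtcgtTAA
GDF9 unnamed: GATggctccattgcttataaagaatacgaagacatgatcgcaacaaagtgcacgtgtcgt

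Levels are quantile-normalized log2 signals, and a fold change is the difference of 2 group means on that scale. A probe was retained when at least 2 of the 3 arrays of some group read it well above background, which held for 41105 probes. Of the 15 ligand probes, 11 were retained, for 8 genes; those of BMP2 and BMP6 were not. A probe passed at a limma adjusted p of at most 0.01 over all retained probes, and a gene was represented by its probe of highest mean signal. A further 18 probes have no gene name on the array but carry a transcript accession of a ligand, and 14 of these were retained. They lie outside the rule and were looked up after its values were seen, and they are called unnamed probes here. Between 37087 and 40632 probes were well above background on an array. Defining testis transcripts were bright on every array: the protamine genes PRM1 and PRM2 averaged 15.79 and 15.78 in the controls.

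BMP5, a BMP of the same subgroup as BMP6 and BMP7, was much dimmer in the t(1;14) testis than in both other groups. Its probe read 10.27, 9.01 and 8.63 on the control arrays, 9.38, 9.09 and 9.44 on the oligospermic arrays and 4.91, 4.27 and 4.73 on the t(1;14) arrays. The highest t(1;14) array lay far below the lowest array of either other group, and the probe was well above background on all 9 arrays. The log2 fold change in t(1;14) against control was -4.66 (SE 0.38), which is a 25.3-fold lower signal and place 11 from the lowest among the 41105 retained probes. No p-value is given, since BMP5 was chosen for this fall. Against the oligospermic group, with the same t(1;14) arrays, the fold change was -4.67 (SE 0.38). Between the oligospermic and control groups it was 0.00 (SE 0.38).

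The control arrays of BMP5 spread over 1.64 on the log2 scale, a 3.12-fold range, against 0.35 for the oligospermic and 0.64 for the t(1;14) arrays. Each of the 3 slides held 1 array of each group. Within the slides the t(1;14) array lay below the control array by -6.00, -4.27 and -3.72, and the oligospermic array differed from it by -0.88, 0.08 and 0.81. The size of the fall depended on the processing: with normexp and an offset of 50 in place of the scanner's own correction, it was -3.01 against control. The parts of the correction and of the offset in this change were not separated.

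The BMP5 fall rests on 1 probe. An unnamed probe with a transcript accession of BMP5 was not well above background on any array and read between 1.42 and 3.67, so it gave no measurement of the gene in any group. The named BMP5 probe shared no run of 18 bases with any other probe of the array.

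**Figure D1:**
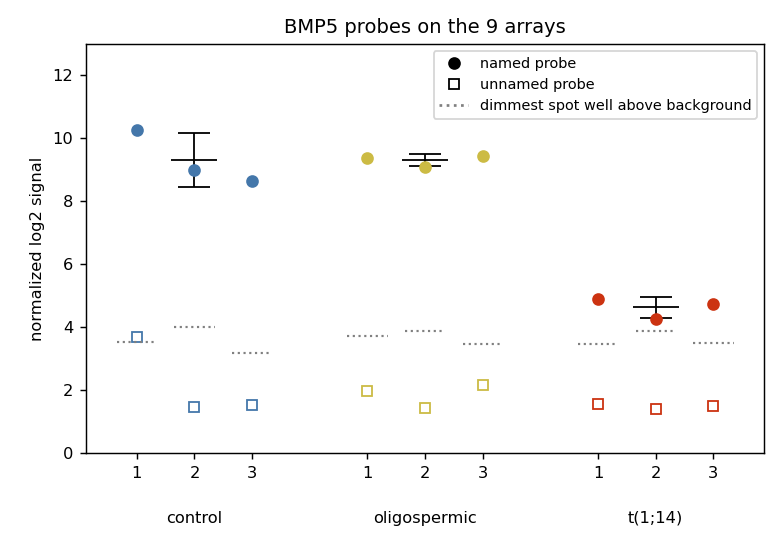
Normalized log2 signal of the named BMP5 probe (filled circles) and of the unnamed BMP5 probe (open squares) on the 3 arrays of each group, with the mean and SD of the named probe in black and, as dotted lines, the dimmest signal that was well above background on each array. The named probe reads 8.63 to 10.27 in the controls and 4.27 to 4.91 in t(1;14), and the unnamed probe was not well above background on any array.

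The 7 other ligands with a retained named probe had smaller fold changes in t(1;14) against control than BMP5, and most did not pass. By gene, 1 of the 7 measured ligands other than BMP5, TGFB3, passed in t(1;14) against control, where 38.5% of all retained probes passed. None of the 7 passed in oligospermic against control, where 0.224% of probes passed and 13% had an unadjusted p under 0.05. In t(1;14) against oligospermic 2 of 7 passed, TGFB1 and TGFB3, beside 42.7% of all probes. The counts moved with the probe and the scaling. In t(1;14) against control 3 genes (BMP7, TGFB1 and TGFB3) passed with each array scaled by its 75th percentile, where 37.9% of all probes passed. The same 3 passed at an adjusted p of 0.05, where 54.4% of all probes passed. When unnamed probes could represent a gene, 4 passed (BMP2, BMP7, GDF9 and TGFB3), beside 38.5% of all retained probes. That count includes BMP2, which is not among the 7. The median fold change of all retained probes in t(1;14) against control was 0.13, and the values below can be read against it.

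TGFB3, a TGF-beta isoform, was the ligand that rose most clearly in t(1;14). Its brightest probe read 6.02, 6.62 and 7.17 in the controls, 6.78, 6.49 and 6.21 in the oligospermic group and 8.34, 8.37 and 8.34 in t(1;14). The 3 t(1;14) arrays lay between 8.34 and 8.37, above all 6 others. The fold change was 1.75 (SE 0.27, limma adjusted p = 0.00087) against control and 1.86 (SE 0.27, limma adjusted p = 0.00056) against oligospermic. A second named probe rose by 1.25 (SE 0.26, limma adjusted p = 0.0038) against control, a pass that held in 2 of the 6 fits that left out an array of either group (limma adjusted p up to 0.015). It was lost with the replicate block (limma adjusted p = 0.013), and with normexp it passed with a smaller fold change, 0.48. An unnamed probe with the same 60 bases as the brightest one gave 1.77 (SE 0.31, limma adjusted p = 0.0017), and the 2 spots differed by a median of 0.066 over the arrays. The third named probe was not well above background on any array and gave no measurement. Within the slides the t(1;14) array exceeded the control by 2.35, 1.72 and 1.17 on the brightest probe. Between oligospermic and control the fold change was -0.11 (limma adjusted p = 0.93), with a 95% interval from -0.73 to 0.51.

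TGFB1, the most widely expressed TGF-beta isoform, gave small fold changes that differed between its probes. Its first probe read 6.01, 6.07 and 6.15 in the controls, 6.11, 6.02 and 5.86 in the oligospermic group and 6.47, 6.51 and 6.37 in t(1;14). The t(1;14) arrays did not overlap the others, but the shift was small: 0.38 (SE 0.11, limma adjusted p = 0.016) against control, which missed the threshold, and 0.45 (SE 0.11, limma adjusted p = 0.0061) against oligospermic, which passed. That pass held in 1 of the 6 fits that left out an array of either group, the one without oligospermic array 1, with a limma adjusted p from 0.008 to 0.024. An unnamed TGFB1 probe gave 0.41 against control and 0.41 against oligospermic (limma adjusted p = 0.032 and 0.031). The second named probe read 3.59 to 4.57 on 8 arrays and 7.19 on oligospermic array 1. Its fold change was -0.09 (SE 0.83, limma adjusted p = 0.94) against control, and the mean over both named probes gave 0.14 (limma adjusted p = 0.8). TGFB2, the remaining isoform, read 6.51, 6.05 and 6.30 in the controls, 6.03, 6.22 and 5.74 in the oligospermic group and 5.90, 5.86 and 5.88 in t(1;14). Its fold change in t(1;14) against control was -0.41 (SE 0.16, limma adjusted p = 0.056), which did not pass, and an unnamed probe gave -0.12 (limma adjusted p = 0.77). A further TGFB2 probe, found by the gene's name in words and counted neither as named nor as unnamed, gave -0.27 (limma adjusted p = 0.21).

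BMP7, of the same subgroup as BMP5, gave positive fold changes. Its named probe read 5.34, 5.66 and 5.99 in the controls, 5.80, 5.89 and 5.79 in the oligospermic group and 6.24, 6.42 and 6.17 in t(1;14). The fold change of 0.61 (SE 0.17, limma adjusted p = 0.014) against control missed the threshold. The fold change passed without control array 3, with an adjusted p of 0.0032, the lowest over the 6 fits that left out an array; the highest was 0.048. The unnamed BMP7 probe read 7.98, 7.97 and 8.33 in the controls, 8.28, 8.30 and 8.14 in the oligospermic group and 8.93, 8.98 and 9.04 in t(1;14). It rose by 0.89 (SE 0.13, limma adjusted p = 0.00054) and passed in each of the 6 fits that left out an array.

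BMP4, which supports early germ cells, gave probes that differed in size. The first named probe, the brighter of the pair, read 5.62, 5.65 and 4.65 in the controls, 5.31, 5.79 and 5.01 in the oligospermic group and 5.44, 5.48 and 4.19 in t(1;14). The 3 groups overlapped, and the fold change in t(1;14) against control was -0.27 (SE 0.41, limma adjusted p = 0.61). The second named probe read 5.23, 4.48 and 4.42 in the controls against 3.86, 3.24 and 3.75 in t(1;14), where only 1 of the 3 arrays was well above background. It fell by 1.09 on the log2 scale (SE 0.26, limma adjusted p = 0.0071), and that pass held in 1 of the 6 fits that left out an array, the one without control array 3, with a limma adjusted p of up to 0.025. It was also lost with slide as a block (limma adjusted p = 0.014), with the 6 arrays of the comparison alone (0.017) and with normexp, where the fold change was -0.22 (limma adjusted p = 0.049). The unnamed pair of probes, which share 1 sequence, gave -0.47 and -0.44 (limma adjusted p = 0.052 and 0.039). All 4 retained probes gave a negative fold change against control.

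GDF9, a ligand best known from oocytes, gave different calls with different probes. The named probe read 4.04, 4.70 and 4.49 in the controls, 4.72, 7.19 and 4.81 in the oligospermic group and 5.25, 4.91 and 5.31 in t(1;14). One array, oligospermic 2, stood 2.43 above the median of the other 8. The fold change in t(1;14) against control was 0.75 (SE 0.59, limma adjusted p = 0.31) and did not pass. The 4 unnamed GDF9 probes, which hold 2 sequences, passed in that comparison, with fold changes from 0.55 to 0.73 and limma adjusted p-values from 0.00096 to 0.0043. Both probes of one sequence passed in each of the 6 fits that left out an array. Those of the sequence printed above passed in 2 and 5 of the 6, and with normexp neither passed (limma adjusted p = 0.066 and 0.023). The unnamed probe printed above, which shares 57 bases with the named one, read 4.78 on oligospermic array 2. In t(1;14) against oligospermic the named probe gave -0.41 (limma adjusted p = 0.57), and the brightest unnamed probe gave 0.62 (limma adjusted p = 0.004). The latter pass held in 2 of the 6 fits that left out an array of either group (limma adjusted p up to 0.018) and was lost with the replicate block (0.013). The other spot of that sequence gave 0.64 (limma adjusted p = 0.0014) and passed in each of the 6 fits and with the replicate block (0.004). The 2 unnamed spots of the sequence printed above did not pass in this comparison (limma adjusted p = 0.054 and 0.016).

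BMP2, an inducer of bone and cartilage, and BMP6 had no retained named probe. The named BMP2 probe read 1.56 to 3.17 and was not well above background on any array. The spot with the same 60 bases read up to 4.42 and was well above background on 6 arrays, with a fold change of 0.22 (SE 0.34, limma adjusted p = 0.61) in t(1;14) against control. Of the other unnamed BMP2 probes, which hold different sequences, one gave 0.83 (SE 0.20, limma adjusted p = 0.0082) and one 0.64 (SE 0.10, limma adjusted p = 0.00081). The first pass held in 1 of the 6 fits that left out an array and the second in all 6, and with normexp neither passed (limma adjusted p = 0.012 and 0.023). With the 6 arrays of the comparison alone the first did not pass (limma adjusted p = 0.022). The second of these probes read 5.10, 5.04 and 4.98 in the controls, 5.23, 5.21 and 5.19 in the oligospermic group and 5.57, 5.78 and 5.69 in t(1;14), with no overlap between any 2 groups. The BMP6 probe read 1.45 to 2.00 on 8 arrays and 7.08 on oligospermic array 1. The same 60 bases at the other place read 1.54 on that array, and no unnamed BMP6 probe was well above background on any array.

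The bright BMP6 spot and the bright second TGFB1 spot on oligospermic array 1 lay in the same column, at rows 381 and 379. Of the 36 spots around the BMP6 spot, 9 were more than 1 above their median on the other arrays, while 3.19% of all probes on that array were. Around the bright GDF9 spot on oligospermic array 2 this held for 5 of 40 spots, beside 3.13% of all probes.

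BMP15, the X-linked partner of GDF9 in the oocyte, was dim. The first probe read 2.78, 4.43 and 4.38 in the controls, 3.86, 4.47 and 4.53 in the oligospermic group and 3.91, 2.39 and 3.75 in t(1;14). It was well above background on 2 arrays of each group, and its fold change of -0.51 (SE 0.53, limma adjusted p = 0.44) was within the spread of the arrays. In t(1;14) against oligospermic it gave -0.94 (limma adjusted p = 0.16), which passed only with slide as a block (limma adjusted p = 0.0091). The spot with the same 60 bases gave -0.03 (SE 0.31, limma adjusted p = 0.94). The second probe, which differs by T47C and G55A in the overlap, was not well above background on any array at either of its 2 places.

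**Figure D2:**
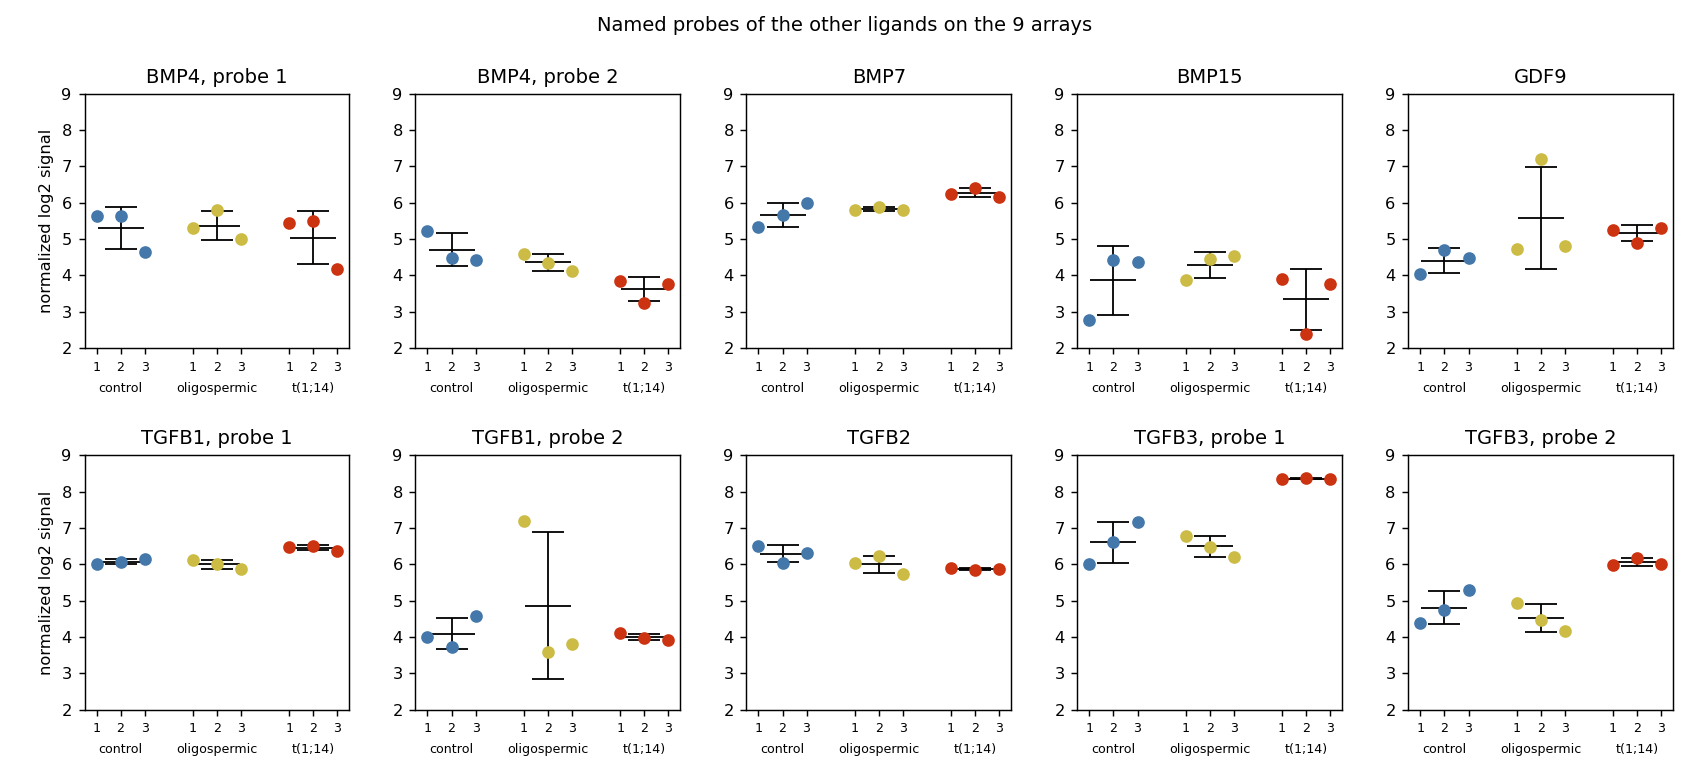
Normalized log2 signal of the 10 retained named probes of the ligands other than BMP5 on the 3 arrays of each group, with the group mean and SD in black; levels of different probes are not comparable. The t(1;14) arrays of TGFB3 lie above all others on both probes, and single oligospermic arrays stand apart for GDF9 (7.19) and for the second TGFB1 probe (7.19).

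Counting probes rather than genes, the t(1;14) and control arrays did not overlap for 8 of the 11 retained named probes, BMP5 among them, and for 10 of the 14 unnamed ones. BMP5 was chosen for its fall, so its separation was fixed in advance. The 25 probes hold only 20 distinct sequences, so some sequences count more than once. Over all retained probes the share without overlap was 61.6%. For oligospermic against control this held for 1 of 11 and 2 of 14, beside 15.5% of all probes. In that comparison the widest fold change among the 7 ligands was that of the GDF9 probe, 1.16 (SE 0.59, limma adjusted p = 0.47), with a 95% interval from -0.19 to 2.51, so that a change of several fold was not detectable with that probe. Without oligospermic array 2, which holds the bright spot, it was 0.35 (limma adjusted p = 0.73). For TGFB1 the interval ran from -0.32 to 0.16.

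**Figure D3:**
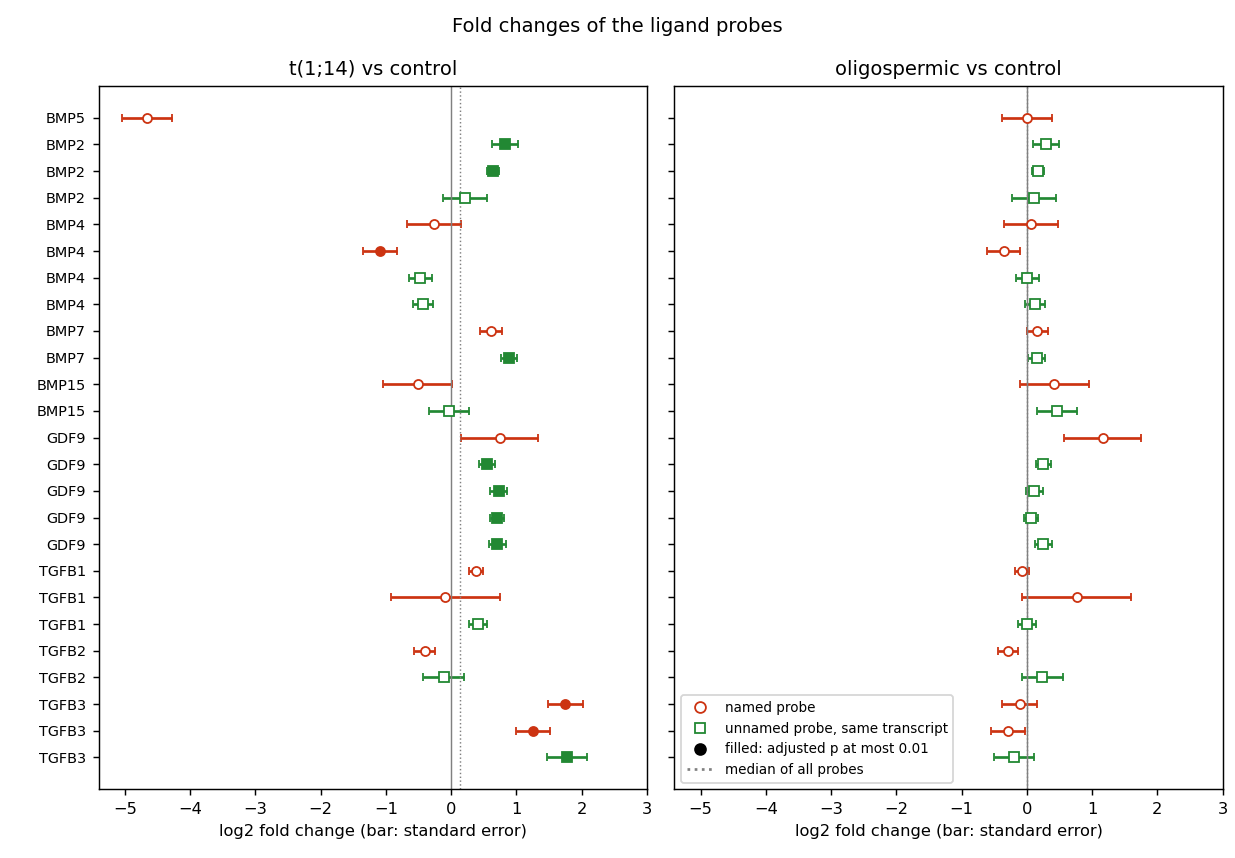
Log2 fold change with its standard error for the 25 retained named (circles) and unnamed (squares) probes of the ligands, in t(1;14) against control (left) and oligospermic against control (right); filled symbols passed a limma adjusted p of 0.01, BMP5 was not tested, and the dotted line is the median of all retained probes. The BMP5 probe stands at -4.66 on the left and 0.00 on the right, and no probe is filled on the right.

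The receptors, SMADs and targets of the pathway were taken from lists of 105 other genes, of which 63 had a probe and 49 a retained one. In t(1;14) against control 20 of the 49 passed, 13 higher and 7 lower, a share of 40.8% beside 38.5% of all retained probes (20% higher and 18.5% lower). Their median fold change was 0.25, and without t(1;14) array 3 the count was 10 of 48, beside 26.4% of all probes in that fit. Of the 20 genes 10 passed in each of the 6 fits that left out an array of either group: GDF5, INHA, TGFBR1, ACVR2A, TGFBR3, SMAD1, SMAD2, SMAD9, ITGAV and ID2. The other 10 lost their pass in at least 2 of the fits. Of these, BMP3, BMPR1A and SMAD4 passed in 1 of the 6, and ACVR1B, SMAD6, CCN2 and MSX1 in 2. BAMBI and ID1 passed in 3 and HEY1 in 4. None of the 49 passed in oligospermic against control, and 21 passed in t(1;14) against oligospermic, beside 42.7% of all probes.

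Of the other ligands, GDF5, a joint-forming factor, fell by 1.35 on the log2 scale (SE 0.16, limma adjusted p = 0.00019), and INHA, the inhibin alpha subunit made by Sertoli cells, rose by 1.06 (SE 0.12, limma adjusted p = 0.00017). BMP3 rose by 0.49 (limma adjusted p = 0.0047) on its brighter probe, while the other gave -0.10, and AMH, INHBA and INHBB did not pass.

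Type I receptors moved in both directions. TGFBR1, which binds TGF-beta ligands, averaged 7.84 in the controls, 6.90 in the oligospermic group and 6.45 in t(1;14), and it fell by 1.39 against control (SE 0.21, limma adjusted p = 0.00082). In t(1;14) against oligospermic TGFBR1 gave -0.45 (limma adjusted p = 0.097), and in oligospermic against control -0.94 (limma adjusted p = 0.095), and neither passed. ACVR1B, an activin receptor, fell by 0.97 (SE 0.21, limma adjusted p = 0.0045). BMPR1A, a BMP receptor, rose by 0.71 (SE 0.14, limma adjusted p = 0.0037), and BMPR1B gave 0.56 (limma adjusted p = 0.025). Of the type II receptors, ACVR2A, shared by activins and BMPs, rose by 0.63 (SE 0.10, limma adjusted p = 0.0011), while BMPR2, TGFBR2 and AMHR2 did not pass. The co-receptor TGFBR3 rose by 1.04 (SE 0.18, limma adjusted p = 0.0016) on its brighter probe, while the other gave -0.05. The pseudoreceptor BAMBI rose by 1.21 (SE 0.29, limma adjusted p = 0.0077).

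SMADs of the BMP branch went opposite ways. SMAD9 rose from a mean of 8.50 to 10.24, by 1.74 (SE 0.17, limma adjusted p = 8.1e-05), and gave -0.50 in oligospermic against control (limma adjusted p = 0.26). SMAD1 fell by 0.63 (SE 0.11, limma adjusted p = 0.0014). In the TGF-beta branch SMAD2 fell by 0.81 (SE 0.13, limma adjusted p = 0.0012), and SMAD3 gave 0.72 (limma adjusted p = 0.021). The common partner SMAD4 rose by 0.76 (SE 0.16, limma adjusted p = 0.0047) on its brightest probe, but its 5 probes disagreed: 3 passed higher and 1 lower. The inhibitory SMAD6 fell by 0.78 (SE 0.18, limma adjusted p = 0.0063), and SMAD7 gave 0.31 (limma adjusted p = 0.11).

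Of 13 target genes 4 rose and 1 fell, a share of 38.5%, the same as the 38.5% of all retained probes. MSX1, a homeobox gene induced by BMPs, rose by 2.62 (SE 0.55, limma adjusted p = 0.0041), the only one of the 49 genes past both an adjusted p of 0.01 and an absolute log2 fold change of 2, as 5.82% of all retained probes were. It read 3.62, 6.21 and 4.29 in the controls, where 2 of the 3 arrays were well above background, 5.01, 5.12 and 4.76 in the oligospermic group and 7.35, 7.31 and 7.33 in t(1;14). Control array 2 lay nearest to t(1;14): without it the fold change was 3.37 and without control array 1 it was 2.07. The pass held in 2 of the 6 fits that left out an array (limma adjusted p up to 0.015). ID1, an inhibitor of differentiation and a direct BMP target, rose by 0.90 (SE 0.19, limma adjusted p = 0.0038). HEY1 rose by 1.13 (limma adjusted p = 0.0042) on its brighter probe, while its other probe fell and passed. The brighter HEY1 probe gave 1.025 in oligospermic against control (limma adjusted p = 0.1) and 0.11 in t(1;14) against oligospermic (limma adjusted p = 0.72). ID2 also rose, by 0.86, and CCN2 fell by 0.64; these 2 were named after their values were seen. Among genes of latency and activation, ITGAV, the integrin subunit that can release TGF-beta from its latent complex, rose by 1.76 (SE 0.21, limma adjusted p = 0.00022). Each of the 7 ITGAV probes passed, with a higher signal in t(1;14). The 2 measured antagonists, GREM1 and FST, and the 2 SMAD regulators did not pass.

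**Figure D4:**
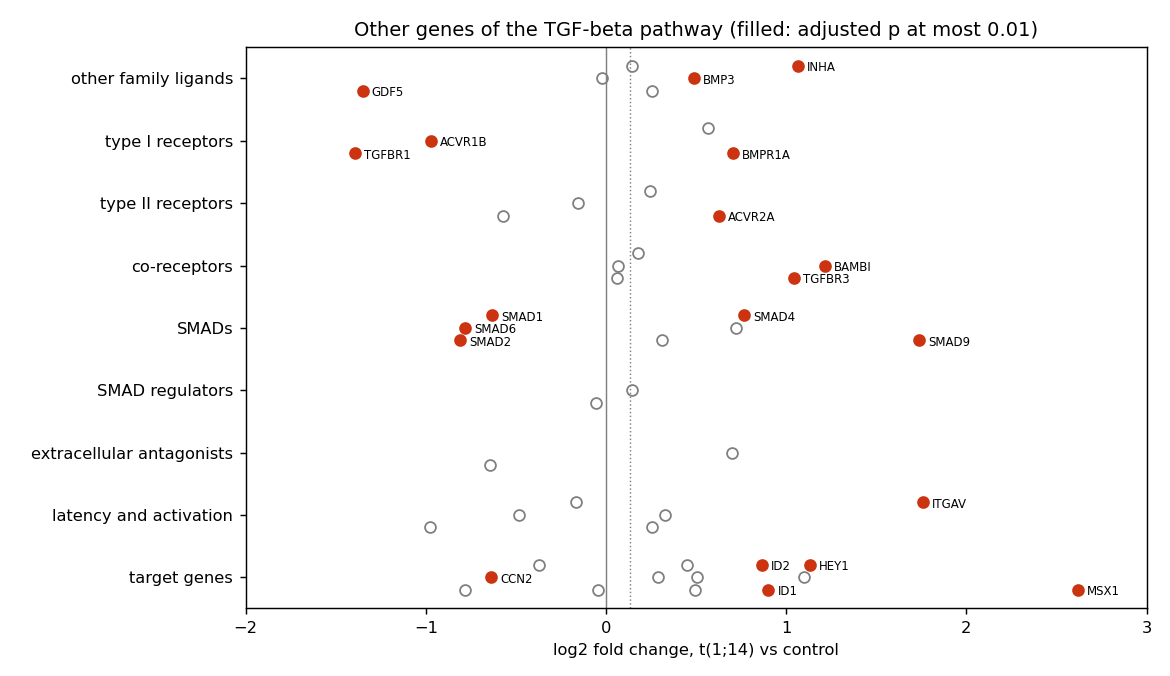
Log2 fold change in t(1;14) against control of the 49 measured pathway genes by list, each as the probe of highest mean signal; filled and named points passed a limma adjusted p of 0.01 (13 higher, 7 lower), and the dotted line is the median of all retained probes. Points of most lists lie on both sides of 0, with MSX1 highest at 2.62 and TGFBR1 lowest at -1.39.

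Markers of cell types moved with the same contrast. In whole tissue, fewer cells of a type and less RNA per cell cannot be told apart. Over all retained probes 20% rose and 18.5% fell in t(1;14) against control. Of 9 measured Leydig cell markers 7 rose and none fell, and the list's mean signal was 14.07 to 14.15 on the t(1;14) arrays against 13.06 to 13.11 on the control and 12.80 to 13.14 on the oligospermic arrays, on the log2 scale. This list level is the log2 of a mean of unlogged signals, so the brightest genes of a list weigh most. Of 5 endothelial markers 2 rose, with a list level of 8.08 to 8.38 against 6.76 to 7.44 in the controls. Of 6 spermatid markers 4 fell, from a list level of 15.03 to 15.26 to one of 14.51 to 14.54. The median fold change of these 6 was -1.68. Of 3 spermatogonium markers 2 rose, with a list level of 11.04 to 11.17 against 10.06 to 10.57 in the controls. Of 5 spermatocyte markers 2 rose and 1 fell, and their list level in t(1;14), 12.64 to 12.71, overlapped that of the controls, 12.57 to 12.70. The marker that fell was SPO11, which makes the breaks of meiotic recombination, named here after its values were seen: it gave -1.03 on its brighter probe and 0.73 on the other. That brighter probe also fell in oligospermic against control, by 2.14 (limma adjusted p = 0.0033), the only marker to pass in that comparison. Of 7 Sertoli cell markers 1 rose and 2 fell, with a list level of 11.91 to 12.11 against 11.10 to 11.95. The median fold change of these 7 was -0.29, while CLDN11, the brightest of them, gave 0.56 (limma adjusted p = 0.16). Of 4 peritubular markers 1 fell, and of 4 immune markers 1 rose, with a list level of 6.59 to 6.72 against 6.01 to 6.58. The shares passing among endothelial and Sertoli cell markers, 40% and 42.9%, lay near the 38.5% of all retained probes. Every measured Leydig and spermatid marker was well above background on all 9 arrays. The part of these shifts in the ligand, receptor and SMAD values was not tested.

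Over the 9 arrays, the 5 named genes whose brightest probe followed BMP5 most closely were ORMDL1, RRNAD1, SCAMP2, AREG and ATP6V1D, with a Pearson r of 0.991 to 0.997. Their fold changes in t(1;14) against control ran from -2.49 for AREG, an epidermal growth factor receptor ligand, to -1.27 for ATP6V1D, a subunit of the proton pump of lysosomes. Of the 5430 genes compared, 926 had an r above 0.9, and the 9 points share the step between t(1;14) and the other groups, so the values only describe likeness.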

How the data were processed

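Scanner files of 9 arrays (Feature Extraction 11.5.1.1) gave the processed intensity, which per the file headers is background-subtracted and detrended within each array. A log2 table of 38759 probes that the authors deposited is quantile normalized over the 9 arrays: every array has a median of 7.87, values run in the direction of the scanner signals (r of at least 0.9998), and they hold 10 of the 15 ligand probes. They served as an alternative.

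Here, log2 processed signals were quantile normalized over the 9 arrays and fitted with limma 3.58.1 (R 4.3.3) as 3 groups without covariates, with Benjamini-Hochberg adjustment over 41105 retained probes per comparison. Retained probes were well above background and not flagged as outliers on at least 2 of 3 arrays of some group. Precision is limited by the 3 arrays of a group. On simulated arrays that kept each probe's spread per group and had few changed probes, the fit missed many small changes, and the share of unchanged probes among those that passed was above the adjusted threshold in every comparison.

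The members, gene lists and tests were chosen with earlier results of these data known. Of the other pathway lists, up to 3 passing genes per list with the largest change in t(1;14) against control were named, besides all receptors and SMADs. Alternatives were: 75th-percentile scaling, normexp with an offset of 50, no filter, a filter in every group, the 6 arrays of a comparison alone, the deposited values, slide or replicate number as a block, an intensity trend, the mean over a gene's probes, and leaving out each array. A threshold of 0.05 and the unnamed probes were added after the data were seen. Unnamed probes were matched by transcript accession against the array's own annotation and RefSeq.

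Replicate numbers were checked for pairing: deviations of same-numbered t(1;14) and control arrays correlated at -0.285, -0.194 and 0.139, and no pairing was used. Arrays of 1 slide correlated at 0.101 to 0.489 in every comparison.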

Additional observations from a re-analysis of the deposited data

How the results depend on the processing

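Of 105 recomputed counts of passing genes, 85 stayed within 1.5 times the count reported, among them every count for oligospermic against control, which was 0 throughout. For ligands in t(1;14) against control, 3 genes passed with 75th-percentile scaling, 3 at an adjusted p of 0.05 and 4 with unnamed probes, which add BMP2, against 1. Leaving out 1 array gave 1 to 2 (2 without control array 3). In t(1;14) against oligospermic, 1 gene passed in place of 2 with normexp, the replicate block, the intensity trend and the mean over a gene's probes, and leaving out 1 array gave 1 to 2; TGFB1 was the gene lost. For pathway genes, the replicate block gave 13 in place of 20 in t(1;14) against control (31.2% of all probes passed, against 38.5%), and leaving out 1 array gave 10 to 23 there (13 without control array 2, and 13, 12 and 10 without t(1;14) arrays 1, 2 and 3, where 32.1%, 28.2%, 29.4% and 26.4% of all probes passed) and 13 to 18 in t(1;14) against oligospermic (13 without oligospermic array 3 or t(1;14) array 2, where 30.6% and 33.4% of all probes passed, against 42.7%); the cause was not tested. Slide as a block moved none of these counts by more than 1.5 times.

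Of 408 recomputed fold changes, 20 changed sign. Of these, 5 belonged to BMP5 in oligospermic against control, where the value was 0.0029, became -0.0296 with normexp and ran from -0.33 to 0.48 when 1 array was left out. The other 15 were in results that had not passed, except TGFB1 in t(1;14) against oligospermic, which was -0.20 as the mean over its probes. In oligospermic against control, that mean gave 0.34 for TGFB1 and -0.15 for BMP4, and unnamed probes gave 0.0036 for TGFB1. In t(1;14) against oligospermic, GDF9 was 0.62 with unnamed probes and TGFB2 0.0168 with 75th-percentile scaling. Leaving out 1 array gave BMP4 -0.60 to 0.16 in t(1;14) against control, -0.26 to 0.25 in oligospermic against control and -0.56 to 0.093 in t(1;14) against oligospermic. It gave BMP7 -0.0013 to 0.33, BMP15 -0.12 to 0.70 and TGFB3 -0.40 to 0.17 in oligospermic against control, and GDF9 -0.84 to 0.40 in t(1;14) against oligospermic. The BMP5 fall ranged from -5.00 to -4.17 against control when 1 array was left out and was smallest with normexp, at -3.01. As a gene, TGFB3 passed in both comparisons with t(1;14) under every alternative, with fold changes from 1.24 to 2.03. Spots of 1 sequence differed by a median of at most 0.112 over the arrays, and by at most 0.267 on a single array, where both were well above background on all 9. Where they were not, they differed by up to 5.54 on a single array. That largest difference was the BMP6 pair on oligospermic array 1, where 1 of the 2 spots read 7.08.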

Other observations

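Pairs of spots with 1 sequence gave a measure of technical error for 8 sequences of these ligands. For the 4 pairs in which both spots were well above background on all 9 arrays (TGFB3, BMP4 and 2 sequences of GDF9), the largest difference on any array was 0.267 on the log2 scale. For the BMP2, BMP6 and BMP15 pairs it was 2.75, 5.54 and 2.22 or 2.04, the BMP15 values on t(1;14) array 2.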
